A study of Mus musculus with 4 samples.

Results

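The 33 genes described here encode the proteins that build the core of the spliceosomal small nuclear ribonucleoproteins (snRNPs). They were listed by name, with earlier results of these data known: 8 genes of the Sm ring, 8 of the LSm rings, 2 LSm genes specific to the U7 snRNP, 10 of the SMN complex and the Cajal body, 3 of U1 and 2 of U2. All 33 were found among the 46517 gene rows of the deposited read table, and 32 had enough exon reads to be tested.

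RNA was sequenced from iNKT (invariant natural killer T) cells, sorted from the thymus of C57BL/6J mice, a T cell type whose semi-invariant receptor recognises lipids on CD1d, at stage 1 (CD24-NK1.1-T-bet-). Both labelled groups, Control and Prmt5 KO, had 2 libraries. The genotype of the latter was Prmt5 flox/D Cd4-Cre. Control libraries carry 1 label for both possible genotypes, Prmt5 flox/D or Prmt5 flox/+ Cd4-Cre, and which library had which is not given. The label does not explain D, and a Control of the second kind could lose its floxed allele through Cre. Cd4-Cre acts from the stage of developing T cells at which CD4 is first made, so the deletion is not specific to iNKT cells. The labels give neither the age of the mice nor whether libraries came from separate animals, and p-values then measure only the spread between these libraries, which may be technical.

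Sm proteins form a ring of 7 subunits around the snRNAs of U1, U2, U4 and U5, and the related LSm proteins form rings around U6 in the nucleus and around mRNAs under decay in the cytoplasm. PRMT5, with its partners WDR77 and pICln, places symmetric dimethyl groups on arginines that precede glycines in the tails of several Sm and LSm proteins. The SMN complex then loads the Sm ring onto the snRNA in the cytoplasm, and the finished particle matures in Cajal bodies of the nucleus. The comparison asks how the transcripts of this assembly line stand in cells from mice in which the methyltransferase gene was targeted.

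Total exon reads ranged from 4600799 to 13240293 per library, so that 1 read was worth 0.0755 to 0.217 CPM before scaling, the count scaled to a fixed library total, and Prmt5 KO 1 was the deepest library. Levels in CPM and RPKM are scaled by TMM, which corrects library totals for composition. Prmt5 itself stood at 98.3 CPM in Control 1, 99.8 in Control 2, 86.7 in Prmt5 KO 1 and 119 in Prmt5 KO 2. Those levels do not separate the groups. Reads are not given exon by exon and the floxed exons are not named, so the level of Prmt5 is no check of the labels. The 6 T cell markers summed to 4745 to 7589 CPM and the 5 iNKT markers to 867 to 1063 CPM over the libraries. By gene, Cd3e (853 and 787 CPM in Control against 287 and 572) and Trac were lower in both libraries labelled Prmt5 KO. Of the iNKT markers Il2rb was lower and Zbtb16 higher in both. The other markers of these lists overlapped. Over all tested genes 19% were lower in both and 20.5% higher. Myeloid markers summed to 1.95 and 1.41 CPM in Control and to 14.4 and 8.07 CPM in the libraries labelled Prmt5 KO, with Itgam and Cd68 higher in both of the latter, and 2 of the 5, Lyz2 and Adgre1, at 0 reads in all 4 libraries. Thymic epithelial markers summed to 2.48 and 0 CPM against 5.63 and 7.88 CPM, with Epcam higher in both libraries labelled Prmt5 KO, and 2 of the 4, Krt5 and Psmb11, at 0 in all libraries. B cell markers summed to 0.177 and 0 CPM against 0.271 and 3.94 CPM, nearly all of the last from Cd79b, while Ms4a1 was at 0. The sort was meant to exclude cells with 3 markers, which did not move together. Tbx21 had 107 and 64.6 CPM in Control against 13.4 and 5.71 CPM, Cd24a had 0 and 0 against 5.56 and 2.56 CPM, and Klrb1c overlapped at 36.8 and 13.1 against 2.91 and 13.8 CPM. Double-positive thymocyte markers summed to 4.73 to 23.0 CPM, with Cd8a higher and Dntt lower in both libraries labelled Prmt5 KO. The part of these differences in the results was not tested.

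The snRNP core genes were abundant transcripts of stage 1 iNKT cells. RPKM divides exon reads by exon length and by depth, so that genes of different length can be compared. The exon length is that of the gene model, which can exceed a transcript and then lowers the value. In Snrpc it is 6217 bases, against 882 in its transcript. By this measure 16 of the 32 tested members stood in the top 10% of all genes with any exon read, tested or not. Snrpd2, for SmD2, led with a mean of 324 RPKM over the 4 libraries, followed by Snrpb, for SmB, at 310 RPKM. Among the assembly factors the levels were lower, with Strap highest at a mean of 69.9 RPKM and Smn1 at 13.2 RPKM. Spread between libraries was of the same order as the steps between neighbouring genes: Snrpd2 ranged from 222 to 451 RPKM and Snrpb from 289 to 326 RPKM, so the order of these leaders is not fixed by the data.

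**Figure D1:**
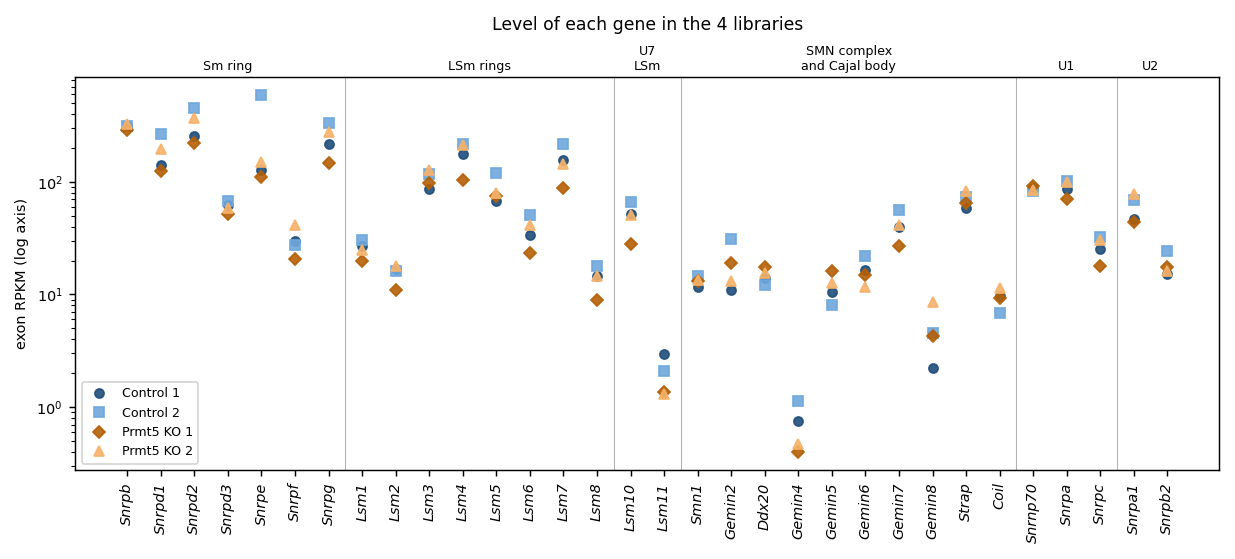
Exon RPKM (log axis) of the 32 tested genes in each library, ordered by role, 1 point per library and no error bars. Blue symbols are Control and orange symbols are Prmt5 KO; the Sm ring reaches the highest levels, and Control 2 (light square) often lies above while Prmt5 KO 1 (dark diamond) often lies below the others.

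None of the 32 tested genes passed an adjusted p of 0.05 between the libraries labelled Prmt5 KO and Control, in edgeR's quasi-likelihood test with Benjamini-Hochberg adjustment over all 10775 genes tested. Over those genes 0% were called higher and 0.00928% lower. The smallest adjusted p of a member was 0.545. At an unadjusted p under 0.05, 0 members were higher and 1, Snrpe, was lower, where 4.62% of all genes were higher and 3.95% lower. DESeq2 and limma-voom likewise called 0 members, and edgeR without a filter on low counts called 1, Snrpe. The median log2 fold change of the members, Prmt5 KO minus Control, was -0.26, with 22 negative and 10 positive values, against -0.00028 for all genes tested, of which 50% were negative and 50% positive. In bulk RNA, fewer cells of a type and less RNA per cell cannot be told apart.

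The groups did not overlap for 9 members. For 7 both libraries labelled Prmt5 KO were below both Control libraries, which is 21.9% of the tested members against 19% of all genes. They were Snrpd3, Lsm1, Lsm7, Lsm10, Lsm11, Gemin4 and Gemin6. For 2, Ddx20 and Gemin5, both were above, which is 6.25% of the members against 20.5% of all genes. The count of lower members therefore stood near the background.

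Snrpb had 615 CPM in Control 1, 624 in Control 2, 571 in Prmt5 KO 1 and 644 in Prmt5 KO 2. The 4 libraries lay close together and the groups overlapped. The log2 fold change of -0.03 ± 0.33 (SE) had a 95% interval of -0.78 to 0.72. Snrpd2 had 157 CPM in Control 1, 277 in Control 2, 136 in Prmt5 KO 1 and 226 in Prmt5 KO 2. The second library of each group was the higher one, and the difference between libraries of a group exceeded that between groups (log2 fold change -0.26 ± 0.40 SE, interval -1.16 to 0.64). Snrpd1, for SmD1, showed the same order with 119 CPM in Control 1, 222 in Control 2, 105 in Prmt5 KO 1 and 162 in Prmt5 KO 2.

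Snrpd3, for SmD3, stood at 214 CPM in Control 1, 234 in Control 2, 179 in Prmt5 KO 1 and 199 in Prmt5 KO 2. Both libraries labelled Prmt5 KO lay below both Control libraries, at 189 ± 14.7 against 224 ± 14.2 CPM (SD, n = 2 each). The log2 fold change of -0.25 ± 0.30 (SE) gave adjusted p = 0.916 by edgeR's quasi-likelihood test. Its mm10 position is chromosome 10, 75517551 to 75537373. Snrpg, for SmG, had 342 CPM in Control 1, 523 in Control 2, 230 in Prmt5 KO 1 and 436 in Prmt5 KO 2, with overlapping groups. Snrpf, for SmF, was the least abundant tested Sm gene, at 25.5 CPM in Control 1, 23.7 in Control 2, 17.6 in Prmt5 KO 1 and 35.8 in Prmt5 KO 2. Its exons overlap Ccdc38 on the opposite strand over 65.9% of their bases, and without strand the reads of both cannot be told apart; Ccdc38 itself had 1 to 9 exon reads.

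Snrpn, for SmN, a paralogue of SmB that is imprinted and best known from brain, had 0 exon reads in all 4 libraries. At these depths a count of 0 allows up to 3 counts, or 0.203 to 0.704 CPM by library, for counting error only. Intron reads of its gene span numbered 0 in Control 1, 1 in Control 2, 31 in Prmt5 KO 1 and 1 in Prmt5 KO 2.

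The arginine-glycine tails are what the methyltransferase is known to act on, so the coding ends of Snrpd3 and Snrpb are shown, from GENCODE M21 transcripts on mm10 in the sense of the mRNA. Capitals mark codons for arginine followed by glycine.
Snrpd3: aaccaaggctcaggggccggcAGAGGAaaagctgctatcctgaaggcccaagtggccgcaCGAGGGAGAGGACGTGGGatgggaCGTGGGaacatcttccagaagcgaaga
Snrpb: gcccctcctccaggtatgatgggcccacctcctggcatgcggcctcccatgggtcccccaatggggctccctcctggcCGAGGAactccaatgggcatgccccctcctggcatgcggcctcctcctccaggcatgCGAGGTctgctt

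Over whole coding sequences Snrpd1 held 10 such codon pairs, Coil 9, Snrpb, Lsm4 and Snrnp70 8 each, Snrpd3 and Gemin5 7 each and Lsm11 6, while the other tested members held 0 to 3. The 8 tested members with at least 6 pairs had a median log2 fold change of -0.14, with 5 negative values. The 24 with fewer pairs had a median of -0.27, with 17 negative values. Transcripts of the arginine-glycine-rich members thus spanned both directions, from Lsm11 at -0.91 to Gemin5 at 0.65. These reads measure RNA and carry no information on the methylation of the proteins.

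Snrpe, for SmE, was the 1 member under an unadjusted p of 0.05, and its difference rested on 1 library and on reads that match several places in the genome. Total exon reads gave 175 CPM in Control 1, 814 in Control 2, 153 in Prmt5 KO 1 and 208 in Prmt5 KO 2. Control 2 stood far above the other 3, which lay close together, and the groups overlapped. The log2 fold change was -1.46 ± 0.61 (SE), with adjusted p = 0.545 in edgeR's quasi-likelihood test, and it was 0.04 without Control 2. Of its exon reads 23.7% were unique in Control 2, against 69.7% to 73.5% in the other libraries. Unique reads alone gave 143 CPM in Control 1, 226 in Control 2, 130 in Prmt5 KO 1 and 169 in Prmt5 KO 2, for a log2 fold change of -0.31 ± 0.35 (SE).

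Control 2 held 2646 exon reads of Snrpe that match more than 1 place, or 621 CPM, against 40.5 to 62.8 CPM in the other libraries. Of those 2646 reads 2620 spanned an exon-exon junction of Snrpe. GENCODE M21 annotates a processed pseudogene of Snrpe, named Snrpert, on the minus strand of chromosome 2 from 131322088 to 131322366, whereas Snrpe itself lies on chromosome 1 from 133603871 to 133610291. A processed copy has no introns, so a read across a junction of the parent gene can match it without a gap. The copy is identical at 273 of the 276 coding bases of Snrpe, and the row of the deposited table at its position had 0 reads in every library.

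**Figure D2:**
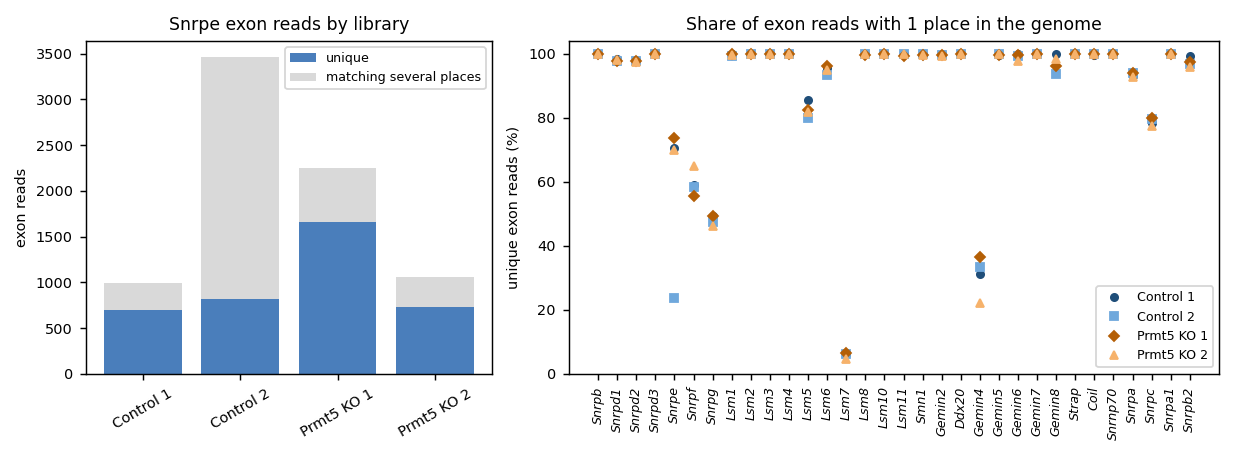
Left, exon reads of Snrpe per library, split into unique reads (blue) and reads that match several places (grey), on a linear axis from 0; the grey part of Control 2 is 2646 reads. Right, percent of exon reads that are unique for each tested gene and library; 7 genes lie under 90% over all libraries, and Snrpe in Control 2 is the 1 point far from its own gene's other libraries.

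Unique reads were under 90% of exon reads, over all libraries, for 7 of the 32 tested members, namely Snrpe, Snrpf, Snrpg, Lsm5, Lsm7, Gemin4 and Snrpc, and at least 95% for 24. Levels of those 7 genes are uncertain for that reason. The unique share varied less between libraries in the other 5 than in Snrpe and Gemin4, for example 46.1% to 49.3% in Snrpg and 77.3% to 79.8% in Snrpc.

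Of the 8 genes of the LSm rings 7 had negative log2 fold changes, with a median of -0.34, and none was called. Lsm4, a subunit of both rings and the most abundant of them at a mean of 176 RPKM, had 182 CPM in Control 1, 224 in Control 2, 107 in Prmt5 KO 1 and 219 in Prmt5 KO 2. Prmt5 KO 1 was the low library, and Prmt5 KO 2 lay between the Control libraries. The log2 fold change of Lsm4 was -0.32 ± 0.39 (SE), and 0.12 without Prmt5 KO 1.

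Lsm7, also a subunit of both rings, had the smallest p of the LSm genes. It stood at 73.1 CPM in Control 1, 101 in Control 2, 41.3 in Prmt5 KO 1 and 66.7 in Prmt5 KO 2. Both libraries labelled Prmt5 KO were below both Control libraries (log2 fold change -0.69 ± 0.38 SE, adjusted p = 0.667 in edgeR's quasi-likelihood test). Only 4.72% to 6.39% of its exon reads were unique, so its level is uncertain. Its 309 coding bases are all repeated without a difference in Gm10146, a processed pseudogene on chromosome 10 from 78393320 to 78393628. The first 120 bases stand for both genes.
Lsm7 and Gm10146: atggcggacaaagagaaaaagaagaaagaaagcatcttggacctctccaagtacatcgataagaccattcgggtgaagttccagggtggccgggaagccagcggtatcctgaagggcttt
The Gm10146 row had 3 to 13 exon reads per library, none of them unique, so nearly all shared reads were listed under Lsm7. Of the exon reads of Lsm7 8.69% to 13.7% spanned a junction, where the median of the tested members was 61.6% to 64.3%. In Gemin7, with 100% of its exon reads unique, that share was lower still, at 3.47% to 6.01%. The source of the Lsm7 reads was not tested.

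Lsm1, which defines the cytoplasmic decay ring, had 63.0 CPM in Control 1, 71.8 in Control 2, 46.8 in Prmt5 KO 1 and 58.7 in Prmt5 KO 2, with groups that did not overlap. Lsm8, which takes its place in the nuclear U6 ring, had 60.7 CPM in Control 1, 74.6 in Control 2, 37.2 in Prmt5 KO 1 and 61.4 in Prmt5 KO 2, with overlapping groups. Log2 fold changes of the pair were -0.36 ± 0.34 and -0.46 ± 0.38 (SE), each near its SE, and the difference between them was not tested. Lsm3 was the 1 LSm gene with a positive value, at 109 CPM in Control 1, 148 in Control 2, 123 in Prmt5 KO 1 and 159 in Prmt5 KO 2. The remaining shared subunits Lsm2, Lsm5 and Lsm6 had log2 fold changes of -0.19, -0.27 and -0.38.

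In the U7 snRNP, which processes the 3' ends of histone mRNAs, Lsm10 and Lsm11 replace SmD1 and SmD2. Lsm10 had 48.7 CPM in Control 1, 62.2 in Control 2, 26.4 in Prmt5 KO 1 and 47.6 in Prmt5 KO 2. Lsm11 had 19.1 CPM in Control 1, 13.4 in Control 2, 8.81 in Prmt5 KO 1 and 8.47 in Prmt5 KO 2. For both genes the 2 libraries labelled Prmt5 KO lay below Control. The log2 fold changes were -0.59 ± 0.42 and -0.91 ± 0.62 (SE), with adjusted p = 0.789 and 0.775 by edgeR's quasi-likelihood test. Lsm11 had 43 to 130 exon reads per library, and its interval of -2.32 to 0.50 is wide.

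Genes of the SMN complex and of the Cajal body went in both directions, with 6 positive and 4 negative log2 fold changes of 10 and a median of 0.08. Gemin5, the subunit that recognises the snRNA, had 69.1 CPM in Control 1, 53.1 in Control 2, 108 in Prmt5 KO 1 and 83.9 in Prmt5 KO 2. Both of the latter were higher, with means of 95.7 ± 16.8 against 61.1 ± 11.3 CPM (SD, n = 2 each). Its log2 fold change of 0.65 ± 0.34 (SE) had adjusted p = 0.643 in edgeR's quasi-likelihood test. Ddx20, the helicase also called Gemin3, had 57.7 CPM in Control 1, 50.001 in Control 2, 72.0 in Prmt5 KO 1 and 63.8 in Prmt5 KO 2, again without overlap and with a log2 fold change of 0.33 ± 0.34 (SE).

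Smn1, the core subunit of the complex, had 30.5 CPM in Control 1, 38.0 in Control 2, 33.8 in Prmt5 KO 1 and 35.0 in Prmt5 KO 2. The libraries lay together, and the interval of the log2 fold change was -0.91 to 0.92. Strap, which binds the complex through Gemin7, was its most abundant gene at 183 CPM in Control 1, 225 in Control 2, 199 in Prmt5 KO 1 and 257 in Prmt5 KO 2. Gemin2, the subunit that holds the Sm proteins, had 26.4 CPM in Control 1, 74.4 in Control 2, 45.7 in Prmt5 KO 1 and 31.5 in Prmt5 KO 2. Control 1 was the lowest and Control 2 the highest of the 4, and without Control 2 the log2 fold change turned from -0.38 to 0.55.

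Among the outer subunits Gemin6 had 23.6 CPM in Control 1, 31.5 in Control 2, 21.4 in Prmt5 KO 1 and 16.5 in Prmt5 KO 2, without overlap. Gemin7, its partner, had 60.7 CPM in Control 1, 86.2 in Control 2, 41.0 in Prmt5 KO 1 and 62.2 in Prmt5 KO 2. Their log2 fold changes were -0.53 ± 0.47 and -0.51 ± 0.38 (SE). Gemin8 was the member with the largest positive value, 0.94 ± 0.71 (SE), but on 31 to 157 reads per library, at 5.49 CPM in Control 1, 11.3 in Control 2, 10.6 in Prmt5 KO 1 and 21.5 in Prmt5 KO 2. Coil, for coilin, which organises the Cajal body, had 34.2 CPM in Control 1, 23.9 in Control 2, 32.5 in Prmt5 KO 1 and 40.6 in Prmt5 KO 2. Gemin4 had 9 to 22 exon reads per library, and 89.8% of its exon bases overlap Glod4 on the same strand, so its log2 fold change of -1.11 ± 1.25 (SE) is uncertain.

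For all 5 U1 and U2 proteins the groups overlapped. Snrnp70, for U1-70K, had the narrowest range, at 147 CPM in Control 1, 140 in Control 2, 152 in Prmt5 KO 1 and 143 in Prmt5 KO 2. The log2 fold change of 0.04 ± 0.30 (SE) had an interval of -0.64 to 0.72. Snrpa, for the A protein of U1, had 152 CPM in Control 1, 180 in Control 2, 123 in Prmt5 KO 1 and 175 in Prmt5 KO 2. Snrpc, for the C protein of U1, had 159 CPM in Control 1, 200 in Control 2, 110 in Prmt5 KO 1 and 188 in Prmt5 KO 2. Of the U2 proteins, Snrpa1 had 144 CPM in Control 1, 212 in Control 2, 136 in Prmt5 KO 1 and 239 in Prmt5 KO 2, and Snrpb2 had 43.2 and 69.5 CPM against 50.1 and 46.3 CPM. In Snrpa, Snrpc and Snrpa1 the lowest library was Prmt5 KO 1.

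**Figure D3:**
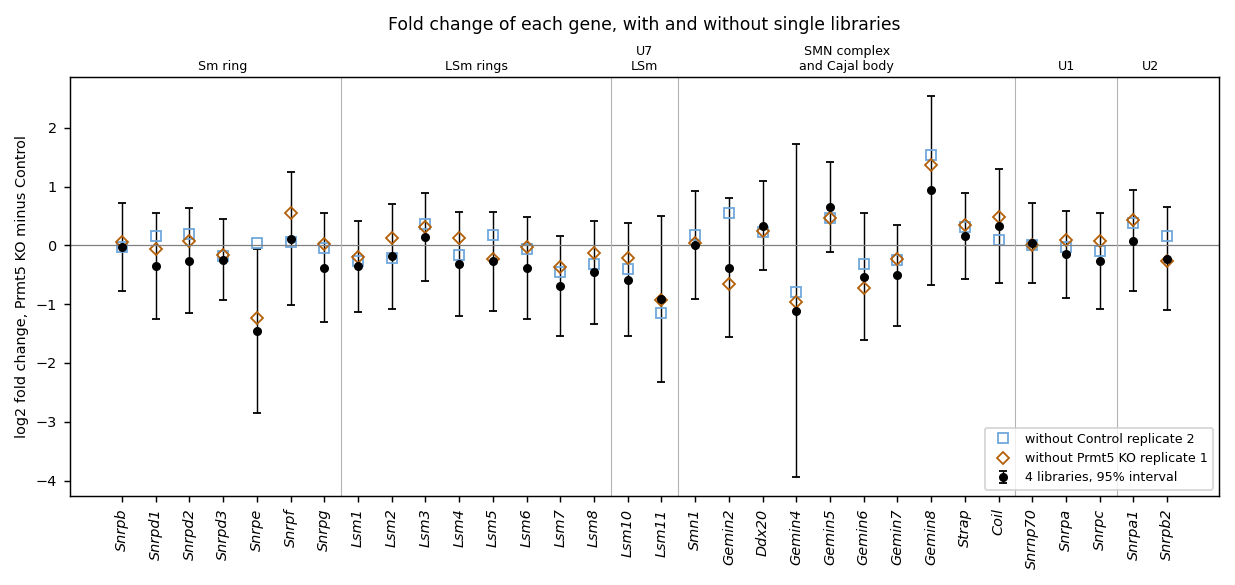
Log2 fold change of each tested gene, Prmt5 KO minus Control, from edgeR with its 95% interval (black, 4 libraries), and the same fit without Control 2 (blue squares) or without Prmt5 KO 1 (orange diamonds). Every interval but that of Snrpe includes 0, and without either library the median of the 17 Sm and LSm genes moves from -0.35 to -0.06.

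The lower values of the Sm and LSm genes rested on 2 of the 4 libraries. Of these 17 tested genes 15 had a negative log2 fold change, with a median of -0.35. Prmt5 KO 1 was the lowest library for 14 of the 17 and Control 2 the highest for 12. The median was -0.06 without Prmt5 KO 1 and -0.06 without Control 2, but -0.69 without Prmt5 KO 2 and -0.58 without Control 1. Over the 32 tested members the median was 0.01, -0.01, -0.45 and -0.42 in that order. The libraries of a group differed as much as the groups did: Prmt5 KO 1 was below Prmt5 KO 2 for 25 of 32 members, against 48.3% of all genes, and Control 2 was above Control 1 for 25 of 32, against 49.0%.

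The same 2 contrasts within groups ran with gene length over all genes. Members had short gene models, with a median of 2.39 kb of exon against 3.85 kb for all genes tested. For the 479 tested genes of up to 1 kb the median log2 ratio of Prmt5 KO 1 over Prmt5 KO 2 was -0.75, and for the 5142 over 4 kb it was 0.26. The ratio of Control 2 over Control 1 went the other way, with medians of 0.46 and -0.16. For the 6 members of up to 1 kb these medians were -0.70 and 0.63. For the 6 members over 4 kb they were -0.33 and 0.045, against 0.26 and -0.16 for all genes of that length. The log2 fold change between groups had a median of -0.29 for all genes of up to 1 kb and of -0.31 for the 6 members of that length. Above 4 kb the medians parted, at 0.11 for all genes and -0.32 for 6 members, which held both signs. Those 6 were Lsm11 at -0.91, Lsm8 at -0.46, Lsm6 at -0.38, Snrpc at -0.27, Ddx20 at 0.33 and Gemin5 at 0.65. Length here is that of the gene model, which can exceed that of a transcript. Of these 6 members, Snrpc has 6217 bases of exon against 882 in its transcript, and Lsm8 4199 against 503. Lsm11 has 6453 in both. Spearman's rho between exon length and the log2 ratio of Prmt5 KO 1 over Prmt5 KO 2 was 0.34 across the 10775 genes and 0.28 across the 32 members, as a description over genes that share the 4 libraries. Between exon length and the log2 fold change, rho was 0.21 across all genes and 0.21 across the members, but -0.15 across the 17 Sm and LSm genes. The part of gene length in the lower Sm and LSm values was not tested.

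**Figure D4:**
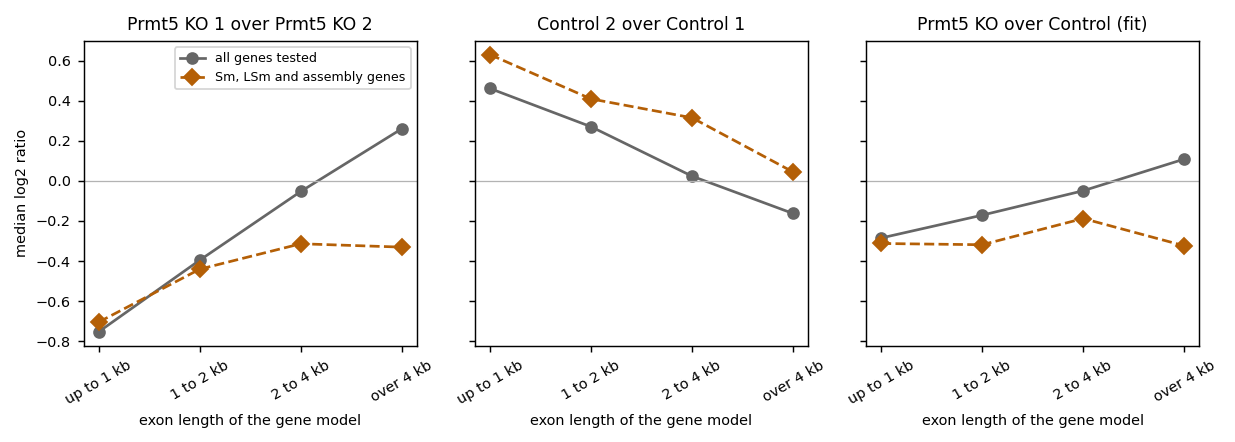
Median log2 ratio by exon length of the gene model, for all genes tested (grey) and for the 32 tested members (orange; 6, 9, 11 and 6 genes per bin), within the Prmt5 KO group, within Control, and between groups; no error bars are drawn. Short genes of both sets were low in Prmt5 KO 1 and high in Control 2, with all-gene medians of -0.75 and 0.46 in the shortest bin.

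Intron reads give a second view of these transcripts, since reads in introns come from unspliced RNA or from genomic DNA. For genes with a minimum of 20 unique exon reads per library and 10 unique intron reads in all, the ratio of intron to exon reads was tested in edgeR with library as a block, over 7400 genes and 26 members. The members had a median log2 change of 1.32 in that ratio, Prmt5 KO minus Control, and 24 of 26 values were positive. For all genes the median was 1.09 and 82.1% were positive. No member passed the adjusted threshold of 0.05 in edgeR's quasi-likelihood test, where 0% of all genes were higher and 0% lower, and none had an unadjusted p under 0.05, which 6.78% of all genes had on the higher side and 0.0135% on the lower. The groups did not overlap, higher, for 11 of the 26 members (42.3%), against 39.2% of all genes. The members thus lay near the background of the whole transcriptome.

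Among the abundant members Snrpb had intron reads at 0.488% and 0.821% of its unique gene reads in Control and at 1.37% and 1.95% in the libraries labelled Prmt5 KO. Both of the latter were higher (log2 change 1.37 ± 1.03 SE). Snrpd3 had 0.495% in Control 1, 2.64% in Control 2, 4.88% in Prmt5 KO 1 and 3.80% in Prmt5 KO 2. Lsm4 had 0.677% in Control 1, 2.85% in Control 2, 9.56% in Prmt5 KO 1 and 3.89% in Prmt5 KO 2, and Snrnp70 had 0.599% and 3.25% against 8.92% and 4.09%. In each of these genes Control 1 was the lowest library, and Control 2 lay nearer to Prmt5 KO 2 than to Control 1 in Snrpd3, Lsm4 and Snrnp70. Snrpd1 had 0.602% in Control 1, 2.02% in Control 2, 2.13% in Prmt5 KO 1 and 2.30% in Prmt5 KO 2, without overlap. Lsm3 overlapped, with Prmt5 KO 2 (0.863%) above Control 2 (0.631%). Snrpd2, Snrpe and Snrpg overlapped, with Prmt5 KO 2 below Control 2. Snrpd2 had 0.115% and 0.691% in Control against 1.35% and 0.534%. Snrpe had 0% and 1.20% against 2.13% and 0.810%, and Snrpg 0.105% and 0.377% against 2.51% and 0%.

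Smn1 had the smallest p of the intron test, with 1.71% in Control 1, 0% in Control 2, 6.40% in Prmt5 KO 1 and 8.29% in Prmt5 KO 2 (adjusted p = 0.720 in edgeR's quasi-likelihood test). Snrpb2 had 2.42% in Control 1, 2.39% in Control 2, 7.82% in Prmt5 KO 1 and 8.91% in Prmt5 KO 2. Of the 26 members 18 were highest in Prmt5 KO 1, 7 in Prmt5 KO 2 and 1, Coil at 21.5%, in Control 2. Over all genes with a minimum of 20 unique exon reads per library, the median was also highest in Prmt5 KO 1, at 5.90%. That median was 1.44% and 2.28% in Control and 3.02% in Prmt5 KO 2. Intron reads of genes without exon reads, which can come from genomic DNA, had a density of 0.0140 reads per kb, scaled to the depth of the library, in Prmt5 KO 1 against 0.00345 to 0.00383 in the other libraries. Without Prmt5 KO 1 the median log2 change was 0.86 over 18 members and 0.81 over all genes. The part of that density in the intron ratios was not tested.

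**Figure D5:**
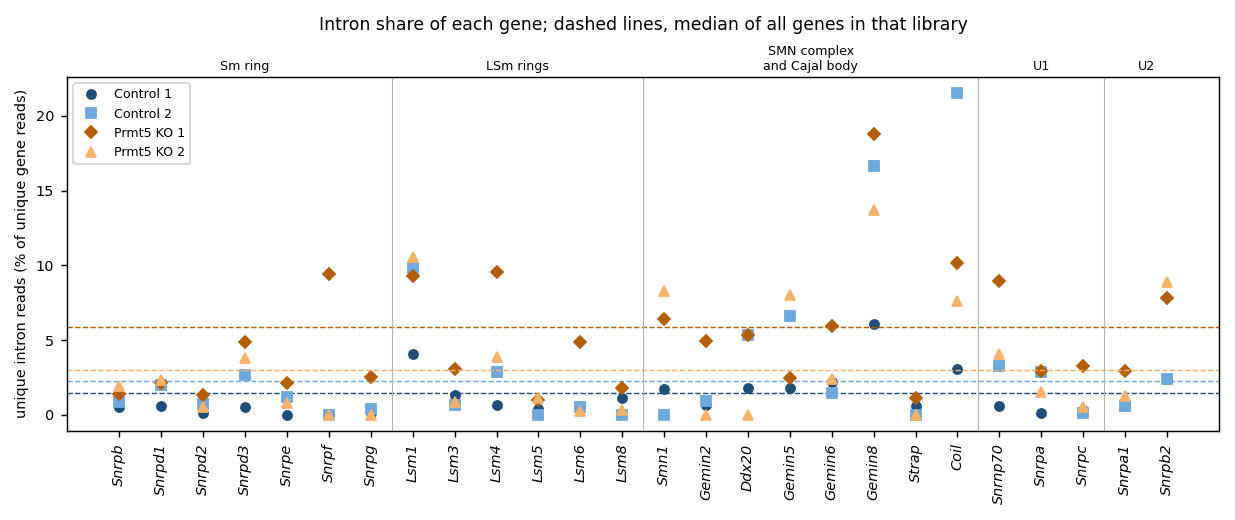
Unique intron reads as percent of unique gene reads for the 26 members in the intron test, 1 point per library without error bars; dashed lines mark the median of all genes past a minimum of 20 unique exon reads per library (1.44% and 2.28% in Control, 5.90% and 3.02% in Prmt5 KO). Most members lie under the line of their own library, and Prmt5 KO 1 (dark diamond) is the highest point for 18 of them.

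Companion lists from the rest of the pathway were read on the same fit, and none of their members passed the adjusted threshold. In the methylosome, the complex of PRMT5 with its partners, 4 of 6 tested genes had positive and 2 negative log2 fold changes (median 0.05). Its smallest p belonged to Wdr77, the obligate partner, with 46.7 CPM in Control 1, 86.4 in Control 2, 22.4 in Prmt5 KO 1 and 59.7 in Prmt5 KO 2, and overlapping groups (log2 fold change -0.71 ± 0.52 SE). Cap trimethylation and snRNP transport had 5 positive values of 7 (median 0.21), and its smallest p belonged to Phax, the snRNA export adaptor, at 61.1 and 61.0 CPM against 67.6 and 112 CPM (0.56 ± 0.36 SE). The list of SF3A and SF3B subunits of U2, which also holds the helicase Dhx15, had 6 positive values of 11 (median 0.05), and Sf3a2 had the smallest p at -0.54 ± 0.36 (SE).

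The companions furthest from 0 belonged to U5 and to the U4/U6.U5 tri-snRNP. Snrnp200, the helicase that unwinds U4 from U6, had 186 CPM in Control 1, 171 in Control 2, 592 in Prmt5 KO 1 and 420 in Prmt5 KO 2. Both of the latter stood far above Control (log2 fold change 1.50 ± 0.34 SE, adjusted p = 0.205 in edgeR's quasi-likelihood test). Ddx23, a helicase of U5, had 3.54 CPM in Control 1, 4.46 in Control 2, 17.6 in Prmt5 KO 1 and 15.8 in Prmt5 KO 2 (2.06 ± 0.70 SE, adjusted p = 0.424 in edgeR's quasi-likelihood test). Prpf3, a U4/U6 protein, had 46.2 CPM in Control 1, 34.7 in Control 2, 148 in Prmt5 KO 1 and 79.3 in Prmt5 KO 2 (1.49 ± 0.40 SE, adjusted p = 0.294 in edgeR's quasi-likelihood test). For Snrnp200, Ddx23 and Prpf3 both libraries labelled Prmt5 KO were above both Control libraries, as for 20.5% of all tested genes. In the U5 list 6 of 8 values were positive (median 0.35) with 2 genes higher at an unadjusted p under 0.05, and in the U4/U6 list 5 of 9 (median 0.05) with 1 gene higher; over all tested genes 4.62% were higher at that p.

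The minor spliceosome had 5 positive values of 8 tested (median 0.04), and Zcrb1 had its smallest p at 0.44 ± 0.38 (SE). Decapping factors that work with the cytoplasmic LSm ring had 7 positive values of 8 (median 0.17), with Edc4 at 0.83 ± 0.40 (SE), while Lsm1 stood at -0.36. Of the factors of histone 3' processing that work with U7, 4 of 6 were negative (median -0.10). Slbp, the histone stem-loop binding protein, had 260 CPM in Control 1, 261 in Control 2, 189 in Prmt5 KO 1 and 160 in Prmt5 KO 2 (-0.58 ± 0.31 SE, adjusted p = 0.657 in edgeR's quasi-likelihood test). Both libraries labelled Prmt5 KO were lower for Slbp, as for 19% of all tested genes. Casp8ap2 of the same list, named after its values were seen, was higher in both, at 66.4 and 56.5 CPM against 46.7 and 30.3 CPM in Control (0.67 ± 0.39 SE). So were 20.5% of all tested genes. Genes with an LSm domain outside the rings had 5 negative values of 6 (median -0.15), with Lsm14a at 0.40 ± 0.31 (SE).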

How the data were processed

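RNA was extracted with an RNeasy Plus Micro kit, and amplified with SMART-seq v4, per the labels, and libraries carry Ion barcodes of 1 run, per the file headers. The authors deposited unnormalized counts per gene (unique and total exon, intron, junction and gene reads) of single, trimmed reads, per the file headers; mm10 and edgeR are named in the submitters' processing notes, and for the mapper and the annotation no name is stated in these sources. Exon length and exon number, another kind of deposited value, served for RPKM and bins; 16 columns of library values (RPKM, expression values, ratios) were not used. Starts count from 0 in the file, and 1 was added.

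Total exon reads were filtered with filterByExpr, scaled by TMM and tested with edgeR 4.0.16 (R 4.3.3; quasi-likelihood, Benjamini-Hochberg, threshold 0.05); limma 3.58.1 and DESeq2 1.42.0 were alternatives. Read columns were chosen after the table had been seen. Library ratios used a pseudocount of 0.5 CPM. Copies and overlaps were searched in GENCODE M21 with windows of 50 bases. The fits were tested on simulated counts. The members, companion lists and marker lists were chosen with earlier results of these data known, as was the rule for named genes: every member, with the most abundant and the smallest p of each role in every library, and the smallest p of each companion list. No protein sequences were used. The labels name no molecular identifiers, so floors cover counting error only, not amplification. The value of 1 marker gene and some sequences are not reported here.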

Additional observations from a re-analysis of the deposited data

How the results depend on the processing

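The values rest on 2 libraries per group, and genes with few reads have wide intervals. Over all genes, counts called higher and lower moved from 0 and 1 to 110 and 105 without a filter on low counts, 5 and 9 with total gene reads, 93 and 75 with DESeq2 and 1 and 12 with limma-voom. Leaving out 1 library each gave 0 to 13 higher and 1 to 24 lower. In those fits the lone library of a group is assumed to vary like the other group. The cause was not tested. Of the members 0 were called in every setting but the fit without a filter, which called 1 lower, Snrpe at -1.43. The member median stayed between -0.31 and -0.17 under the alternatives that kept all 4 libraries and ran from -0.45 to 0.01 with 1 left out. Without scaling factors the median of all genes was 0.09, and the member median -0.17.

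Labels give no pairing by replicate number, and deviations of same-numbered libraries correlated with r = 0.177 across genes. With the replicate number as a block, 180 genes were called higher and 182 lower, 0 of them members, and the intron test called 0 in both directions with a member median of 1.32; under the block Coil stood at 0.011 in the intron test.

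Signs turned for Snrpb without scaling factors (0.055), Snrpf with limma-voom (-0.14), Smn1 with unique exon reads (-0.0062) and Gemin6 with total reads in the intron test (-0.62). With 1 library left out, log2 fold changes in exon reads that turned sign had these ranges: Snrpb -0.11 to 0.064, Snrpd1 -0.70 to 0.16, Snrpd2 -0.66 to 0.20, Snrpe -2.15 to 0.035, Snrpf -0.48 to 0.55, Snrpg -0.90 to 0.022, Lsm2 -0.57 to 0.13, Lsm3 -0.053 to 0.37, Lsm4 -0.92 to 0.12, Lsm5 -0.59 to 0.18, Smn1 -0.11 to 0.17, Gemin2 -0.91 to 0.55, Strap -0.031 to 0.34, Snrnp70 -0.0011 to 0.11, Snrpa -0.43 to 0.091, Snrpc -0.69 to 0.081, Snrpa1 -0.38 to 0.44 and Snrpb2 -0.49 to 0.15. In the intron test, where 0 to 1 genes were called higher, the ranges were Lsm3 -0.11 to 1.73, Lsm6 -1.01 to 3.30, Lsm8 -0.23 to 5.49, Ddx20 -6.40 to 0.77, Gemin5 -0.60 to 1.36, Gemin8 -0.057 to 1.53, Strap -0.56 to 5.71, Coil -1.50 to 1.62 and Snrpa -0.40 to 4.02. No other member changed sign with 1 library left out.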

Other observations

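Intron reads of the companion genes were read on the same intron test, in which the median log2 change of all genes was 1.09 and 0 of 7400 passed the adjusted threshold. Of all genes 82.1% had a positive value. The minor spliceosome had a median of 2.89, with 6 of 6 tested values positive. The list of SF3A and SF3B subunits, which also holds Dhx15, had 1.56, with 10 of 10 positive, and histone 3' processing had 2.13, with 6 of 6 positive. Decapping factors that work with the cytoplasmic LSm ring had 4 positive and 4 negative values and a median of -0.05. The remaining companion lists had medians from 1.15, for LSm-domain genes outside the rings, to 2.02, for the methylosome. The difference between lists was not tested. Nhp2l1, a protein that binds U4 snRNA, had intron reads at 0% of its unique gene reads in Control 1, 0.0921% in Control 2, 2.35% in Prmt5 KO 1 and 1.09% in Prmt5 KO 2. Prmt5 itself had 0%, 0.235%, 0.853% and 5.48% in the same order, with Prmt5 KO 2 far above the other libraries. For both, edgeR's quasi-likelihood test gave adjusted p = 0.717.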
